A study of Mus musculus with 14 samples.

Results

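The 39 genes described here encode the contractile apparatus of the heart muscle cell and the structures that anchor it. They were chosen by name from textbook knowledge of the sarcomere, without a rule on their measured values but with earlier results of these data known, and all 39 were found by symbol among the 54532 genes of the count table. By role they comprised 10 genes of the thick filament and M-band (Myh6, Myh7, Myh7b, Myl2, Myl3, Mybpc3, Ttn, Myom1, Myom2 and Cmya5) and 7 of the thin filament (Actc1, Tnnt2, Tnni3, Tnnc1, Tpm1, Lmod2 and Tmod1). Another 12 encode proteins of the Z-disc and its desmin links (Actn2, Tcap, Ldb3, Myoz2, Nebl, Myot, Mypn, Des, Flnc, Nexn, Synpo2l and Pdlim5), and 5 belong to the costamere and membrane complex (Dmd, Sgcd, Sgca, Vcl and Smpx). The last 5 are the chaperones Cryab and Hspb7, the kinase Mylk3 and the ubiquitin ligases Trim63 and Fbxo32.

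The sarcomere is the repeating unit of striated muscle, in which myosin heads of the thick filament pull on actin thin filaments when calcium binds troponin. Z-discs, built on alpha-actinin, anchor the thin filaments of neighbouring sarcomeres, titin spans from Z-disc to M-band, and costameres tie the Z-discs to the cell membrane and the matrix outside. In the adult mouse ventricle the alpha myosin heavy chain prevails, and a shift towards the beta chain is a usual measure of cardiac remodelling.

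The libraries came from cardiac tissue of 14 male C57BL/6J mice, 1 mouse per library, and the part of the heart that was taken was not given in the sources used here. Mice were 8 weeks old when 30 Gy of γ-rays was given locally to the chest, and the hearts were collected after 1 day from 3 irradiated (IRR_1d) and 3 unirradiated mice (Control_1d), and after 6 weeks from 4 irradiated (IRR_6w) and 4 unirradiated mice (Control_6w). The labels name no transgene or deletion. The comparisons asked whether expression in the heart differed after chest irradiation, early and late, and how it differed between the collection times.

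Libraries held 13336746 to 16837265 counts, and the members took between 0.936 and 6.21% of them. The tissue label was checked against 13 cardiomyocyte genes that are not members (such as Ryr2, Pln and Atp2a2), whose summed level ran from 3980 to 29819 normalised CPM (CPM scaled by TMM factors, the unit of all levels below unless stated). Control_6w replicate 3 was lowest on this sum, with 4832 normalised CPM of 10 thymus markers against at most 69.8 in the other libraries. IRR_6w replicate 1 followed with 6814, and held 525 normalised CPM of 8 lung epithelium markers and 3252 of 7 atrial markers, with 99 counts of the ventricular light chain Myl2. IRR_1d replicate 3 had 2323 normalised CPM of the atrial markers and 1829 of 6 smooth muscle markers, which reached at most 470 elsewhere. Control_1d replicate 2, not counted below among the libraries with markers of other tissues, had 591 of the atrial markers, against 400 in Control_6w replicate 3. Markers of skeletal muscle, 14 genes in all, summed to 7.46 to 41.2 normalised CPM in every library. Of the 1881 genes with a mean of 2 to 5 CPM, the share at 0 counts was 37.6% in Control_1d replicate 1, 7.66% in Control_6w replicate 1, and 28.97 and 13.98% in IRR_6w replicates 3 and 4, against at most 4.15% elsewhere. The fitted comparisons of the members below are also given without the libraries with markers of other tissues and without the 4 with many genes at 0 counts.

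Some of the members were among the most abundant transcripts of the heart. Ranked by median normalised CPM over the 14 libraries, Myh6 was 10th and Actc1 was 11th of all genes. At the other end, Myot was 5359th, Sgcd 6238th and Myh7b 8083rd. Per kilobase of the deposited exon length, the median level of Actc1, cardiac alpha-actin, was 3983 FPKM, that of Myl3, the essential light chain, 1573, that of Myh6, the alpha myosin heavy chain, 1064, and that of Tnni3, cardiac troponin I, 994. Titin (Ttn), whose deposited length of 116825 bases exceeds that of any other member, had a median of 17.0 FPKM although it ranked 21st of all genes by normalised CPM. Myh7, the beta myosin heavy chain, was at 5.67 FPKM, dystrophin (Dmd) at 5.19, delta-sarcoglycan (Sgcd) at 2.61, and Myh7b, a further myosin heavy chain, was last at 1.91. Levels of neighbours in this order overlapped widely between libraries. The order also depends on the length used, since Tnnt2, cardiac troponin T, was 14th of the members by the deposited length of all its exons together and 6th by the length of its longest coding transcript. The lowest member counts in any library were 10 for Myh7b and 13 for Myot, both in IRR_6w replicate 1, so that no member was at 0.

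RefSeq promoter windows of GRCm38.p6, which run from 250 bases before to 50 after a transcription start, were found for 33 of the 39 members. A CArG box, the recognition sequence of serum response factor, was present on either strand in the windows of 7 of the 33 (Actc1, Dmd, Ldb3, Myl3, Myom1, Nebl and Vcl), against 1.81% of all 27025 genes with a window. An MEF2 box was present in 5 (Dmd, Mybpc3, Myoz2, Synpo2l and Ttn), against 3.70% of all genes. The letters CATTCC, the core that TEAD factors bind, were found on either strand in 16 of 33, against 16.6% of all genes. TATAAA was found in 7 of 33, against 15.7%. These matches describe the letters in the windows and were not related to any measured level. The stretches upstream of the start are shown for 5 members that represent the thin filament, Z-disc, M-band, costamere and thick filament, with the CArG box in capitals for the first 4 and the MEF2 box in capitals for Mybpc3, 5′ to 3′ on the gene's strand. They lie at chr2:114052888-114053025 (minus strand, Actc1), chr14:34588683-34588831 (minus, Ldb3), chr17:71019407-71019520 (plus, Myom1), chrX:82948720-82948869 (plus, Dmd) and chr2:91117994-91118143 (plus, Mybpc3), and hold no annotated exon of the gene.
Actc1: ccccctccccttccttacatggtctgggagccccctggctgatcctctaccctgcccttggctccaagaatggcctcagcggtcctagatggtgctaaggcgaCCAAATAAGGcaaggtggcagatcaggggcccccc
Ldb3: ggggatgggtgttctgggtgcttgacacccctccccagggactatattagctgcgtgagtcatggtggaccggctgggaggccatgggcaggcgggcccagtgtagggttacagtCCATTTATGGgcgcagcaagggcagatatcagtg
Myom1: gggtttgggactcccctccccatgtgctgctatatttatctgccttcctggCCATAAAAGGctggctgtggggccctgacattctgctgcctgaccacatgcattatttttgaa
Dmd: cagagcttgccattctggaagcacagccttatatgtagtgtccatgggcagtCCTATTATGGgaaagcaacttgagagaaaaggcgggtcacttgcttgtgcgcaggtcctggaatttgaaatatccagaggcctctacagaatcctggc
Mybpc3: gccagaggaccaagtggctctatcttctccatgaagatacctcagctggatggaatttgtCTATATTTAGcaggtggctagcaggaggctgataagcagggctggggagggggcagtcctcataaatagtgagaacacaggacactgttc

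Member levels differed widely between libraries of the same group. Summed over all 39, they reached 37614, 53926 and 65999 normalised CPM in Control_1d and 53942, 44578 and 26825 in IRR_1d. They reached 36490.0, 66940.2, 8106 and 56409.8 in Control_6w and 13605, 48828, 27206 and 28917 in IRR_6w. Control_6w replicate 3 was therefore lowest and Control_6w replicate 2 highest, both within 1 group. Divided by the sum of the 13 cardiomyocyte markers, the same totals lay between 1.44 and 2.32 in every library, and Control_6w replicate 3 stood at 2.04 and IRR_6w replicate 1 at 1.997. In bulk tissue, fewer heart muscle cells and less RNA per heart muscle cell cannot be told apart. The part of the thymus, lung and atrial markers of these libraries, given above, in their low totals was not tested.

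In Control_6w replicate 3, 35 of the 39 members were below every one of the 12 libraries other than this one and IRR_6w replicate 1. The median member there stood at 19.4% of its median over those 12, from 12.6% for Myl3 to 55.4% for Nebl (nebulette). In IRR_6w replicate 1, 32 members were below all 12, the median stood at 34.2%, and the range was far wider. Vinculin (Vcl), which links actin to the membrane, was at 98.0% of its median there, whereas Myl2, the ventricular regulatory light chain, was at 0.400% and Myl3 at 0.616%. Myh7b and Myot (myotilin) stood at 4.15 and 2.37%. Nebl, Myl3 and Myot were named here after their values were seen.

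**Figure D1:**
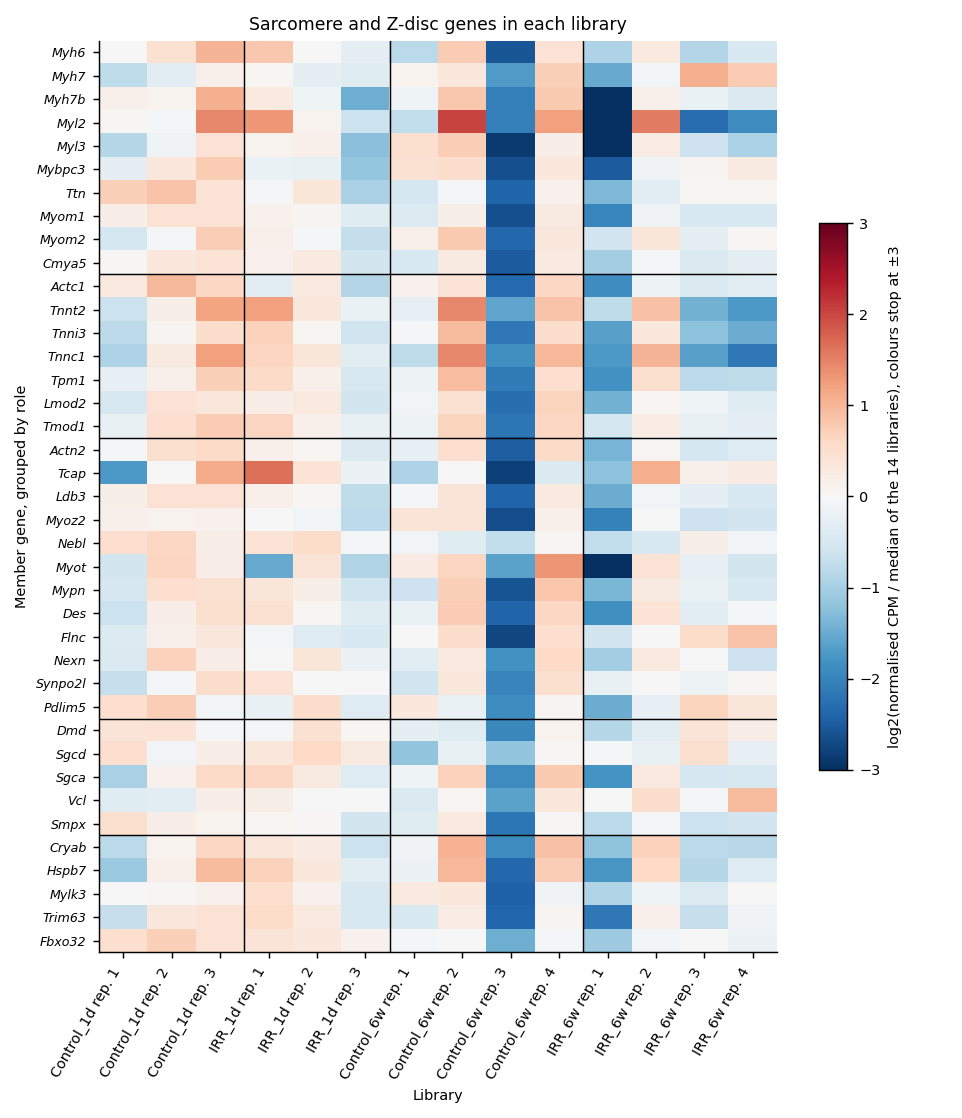
Each cell shows log2 of a member's normalised CPM over its median across the 14 libraries, with the members grouped by role from thick filament (top) to chaperones, kinase and ubiquitin ligases (bottom) and libraries grouped by condition. Control_6w replicate 3 is low for nearly all 39 members, and IRR_6w replicate 1 is low for most of them and lowest for Myl2 and Myl3.

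The fit across all 16034 tested genes, with edgeR's quasi-likelihood test and Benjamini-Hochberg adjustment, called none of the 39 members as a differentially expressed gene (DEG, adjusted p under 0.05 with a fold above 2 or below 0.5) in any of the 5 comparisons. DESeq2 on the same libraries also called 0 members in each. Between replicates of a group the members varied a little more than other genes, with a median biological coefficient of variation of 0.505 (0.299 to 1.06) against 0.473 over all tested genes. As a result the 95% intervals were wide, and only Nebl, Dmd and Sgcd at 1 day and Nebl, Synpo2l and Fbxo32 at 6 weeks had intervals that lay within a 2-fold change in both directions. In each of these comparisons the intervals of the other 36 members reached a 2-fold difference in at least 1 direction.

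At 1 day after irradiation, most members were lower in IRR_1d than in Control_1d, without passing the test. Of the 39, 27 were lower and 12 higher, where 44.7% of all tested genes were lower. The members' median log2 fold change was -0.16 against 0.06 over all tested genes. None was a DEG, where 0.0249% of all genes were, and none had an unadjusted p under 0.05 by edgeR or DESeq2, where 1.94% of all genes were higher and 0.960% lower by edgeR. In 7 members every irradiated heart was below every control (Ttn, Myom1, Actc1, Ldb3, Myoz2, Smpx and Fbxo32) and in none was it above, against 4.14% of all genes fully lower and 6.52% fully higher. Of the 13 cardiomyocyte markers 9 were lower (median log2 fold change -0.35) and 7 of 7 fibroblast markers were higher by the fit (median 0.78, 1 at an unadjusted p under 0.05 by edgeR). The fibroblast sum was 2890, 2417 and 2172 normalised CPM in Control_1d and 2459, 2584 and 5659 in IRR_1d, so that only IRR_1d replicate 3 lay above every control. The sum of 6 endothelium markers was 1280 to 1412 normalised CPM in IRR_1d against 1531 to 2081 in Control_1d, without overlap. The part of these markers in the member values was not tested.

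Thick filament and M-band genes were lower in 9 of 10 members at 1 day, with a median log2 fold change of -0.30. Ttn, the giant spring that sets passive stiffness, had normalised CPM of 3272, 3590 and 2646 in Control_1d and 1947, 2542 and 1010 in IRR_1d. The groups did not overlap, but the highest irradiated heart was close to the lowest control, and the log2 fold change was -0.79 (edgeR, SE 0.56, adjusted p = 1). Myh6 had 7123, 9895 and 14628 in Control_1d and 12627, 7192 and 5964 in IRR_1d, so that the groups overlapped and the log2 fold change was -0.30 (SE 0.68). Myl2 had 1387, 1330 and 3694 in Control_1d and 3355, 1463 and 876 in IRR_1d, and its log2 fold change of -0.17 carried an SE of 1.38, the largest of the members. Myh7 had 29.0, 39.6 and 54.5 in Control_1d and 51.3, 40.9 and 38.3 in IRR_1d, a log2 fold change of 0.08 (SE 0.58). Myh7b had 14.1, 13.7 and 26.3 against 15.5, 11.5 and 4.56, a log2 fold change of -0.78 (SE 0.85). Both overlapped.

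In the thin filament, 5 of 7 members were lower at 1 day. Actc1 had 7911, 12626 and 9894 normalised CPM in Control_1d and 5076, 7862 and 3501 in IRR_1d. The groups did not overlap, although the gap was narrow, and the log2 fold change of -0.89 was the lowest of the 39 (edgeR, SE 0.64, adjusted p = 1). Tnni3, which holds the thin filament off when calcium is low, had 1181, 2178 and 2979 in Control_1d and 3303, 2140 and 1353 in IRR_1d, with a log2 fold change of 0.10 (SE 0.69). Tnnt2, which fixes troponin to tropomyosin, had 1026, 1809 and 3643 against 3771, 2039 and 1404, with a log2 fold change of 0.16 (SE 0.79). Both troponins overlapped between the groups.

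At the Z-disc, 9 of 12 members were lower at 1 day. Ldb3 (cypher, a PDZ and LIM protein that binds alpha-actinin) had 722, 861 and 859 normalised CPM in Control_1d and 712, 660.0 and 375 in IRR_1d, a log2 fold change of -0.48 (edgeR, SE 0.54, adjusted p = 1). Its groups were separate by a small margin. Actn2, alpha-actinin itself, had 928, 1353 and 1444 against 1075, 1015 and 719, and Des, desmin, the intermediate filament around the Z-discs, had 596, 1076 and 1303 against 1279.6, 979.5 and 731. Their log2 fold changes were -0.41 (SE 0.57) and 0.01 (SE 0.65), and both overlapped. Tcap (telethonin, which caps titin) varied widely, with 95.3, 319 and 682 in Control_1d and 987, 417 and 279.9 in IRR_1d, and had the highest log2 fold change of the members, 0.62 (SE 0.76).

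Among the 5 costamere genes, the median log2 fold change at 1 day was 0.18. Smpx, a small muscle protein of the costamere, had 255, 209 and 195 normalised CPM in Control_1d and 190.4, 187 and 123 in IRR_1d, with a log2 fold change of -0.39 (edgeR, SE 0.45, adjusted p = 1). Dmd had 162, 163 and 118 against 119, 170.4 and 128, and Vcl had 59.4, 61.5 and 87.9 against 87.1, 75.4 and 76.6. Smpx was separate between the groups and the other pair overlapped.

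Of the protein quality genes, Fbxo32 (atrogin-1), a ubiquitin ligase of muscle wasting, had 146, 169 and 139 normalised CPM in Control_1d and 135, 127 and 113 in IRR_1d. The groups did not overlap, and the log2 fold change was -0.28 (edgeR, SE 0.36, adjusted p = 1). Trim63 (MuRF1), a ubiquitin ligase located at the M-band, had 65.5, 132 and 142 against 153, 128 and 75.8, with overlap and a log2 fold change of 0.07 (SE 0.61). Cryab, the small heat shock protein that protects desmin and titin, had 415, 772 and 1114 against 911, 859 and 464, a log2 fold change of -0.04 (SE 0.66).

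The lean towards lower values at 1 day depended on single libraries and on the scale. IRR_1d replicate 3 had the lowest value of its group in Ttn, Actc1, Myh6, Tnni3, Ldb3 and Fbxo32, and without it the members' median log2 fold change was 0.04, with 18 of 39 lower. Without all 3 libraries with markers of other tissues it was 0.03, also with 18 of 39 lower. Without Control_1d replicate 3 the median was 0.05, and without Control_1d replicate 1 it was -0.36. Without the 4 libraries with many genes at 0 counts, of which Control_1d replicate 1 is the only one in this comparison, it was -0.38, with 35 of 39 lower. With all libraries kept, scaling by the 13 cardiomyocyte markers put the median at 0.22, against 0.53 for all genes, with 10 of 39 lower. Smooth muscle and atrial markers were high in IRR_1d replicate 3, as given above, and their part in these values was not tested.

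**Figure D2:**
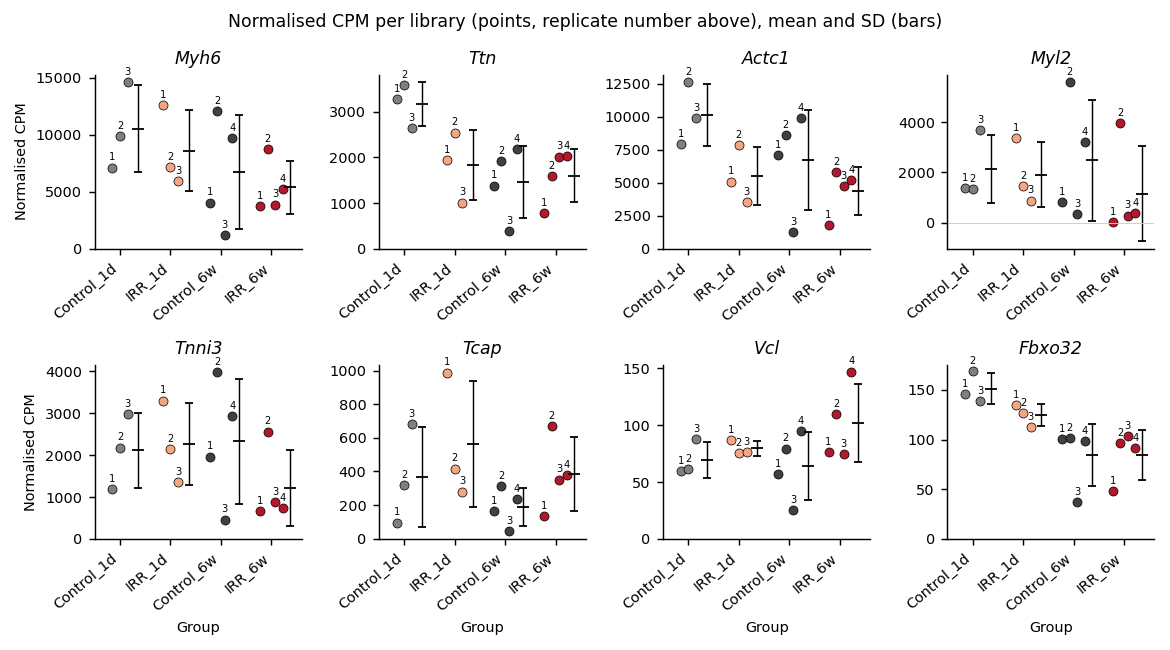
Normalised CPM of 8 members in each library, with the replicate number above each point and the group mean with its SD beside the points. Ttn, Actc1 and Fbxo32 are lower in each IRR_1d heart than in each Control_1d heart, whereas the groups of 6 weeks overlap in all 8 panels.

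At 6 weeks after irradiation, the thin filament genes were all lower in IRR_6w than in Control_6w and 3 of 5 costamere genes were higher, again without passing the test. Of the 39 members, 28 were lower and 11 higher, where 56.2% of all tested genes were lower. The members' median log2 fold change was -0.31 against -0.09 over all tested genes. None was a DEG by edgeR, where 0.256% of all genes were, and none reached an unadjusted p under 0.05 by edgeR or DESeq2, where 5.43% of all genes were higher and 3.37% lower by edgeR. In none of the 39 did the groups separate, against 4.08% of all genes fully higher and 1.64% fully lower. Markers of other cell types moved with this comparison, and 10 of the 13 cardiomyocyte markers were lower by the fit (median log2 fold change -0.32). The 6 macrophage markers summed to 1020 to 1305 normalised CPM in IRR_6w against 228 to 604 in Control_6w, with 5 of the 6 higher at an unadjusted p under 0.05 by edgeR, and the 7 fibroblast markers to 2520 to 3992 against 1047 to 2232, with 5 of the 7 higher, and no gene of either list was a DEG. The mitochondrial share of counts was 10.4 to 22.2% in IRR_6w and 22.3 to 30.3% in Control_6w. The macrophage sum, the fibroblast sum and the mitochondrial share did not overlap between the groups, and their part in the member values was not tested.

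All 7 thin filament genes were lower at 6 weeks, with a median log2 fold change of -0.64. Tnni3 had 1963, 3977, 461 and 2937 normalised CPM in Control_6w and 662, 2561, 871 and 736 in IRR_6w. Only IRR_6w replicate 2 lay among the 3 higher controls, and the log2 fold change was -0.95 (edgeR, SE 0.60, adjusted p = 0.706). Tnnt2 had 1354, 4369, 534 and 2900.1 in Control_6w and 951, 2972, 597 and 484 in IRR_6w, a log2 fold change of -0.87 (SE 0.69). Actc1 had 7081, 8627, 1278 and 9894 against 1757, 5806, 4763 and 5207, so that all irradiated hearts were below the controls other than replicate 3, with a log2 fold change of -0.62 (edgeR, SE 0.55, adjusted p = 0.801).

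Thick filament and M-band genes were lower in 8 of 10 members at 6 weeks. Myl2 spanned almost the whole range of the data within IRR_6w, with 5.69, 3960.4, 279 and 368 normalised CPM, and 810.3, 5579, 329 and 3199 in Control_6w. Its log2 fold change of -1.10 had a 95% interval from -3.69 to 1.48. Myh7b had 11.6, 22.3, 3.08 and 21.9 in Control_6w and 0.575, 14.03, 11.1 and 9.45 in IRR_6w, with the smallest p of its group (edgeR adjusted p = 0.822, log2 fold change -0.75, SE 0.73). Myh6 had 4055, 12085, 1206 and 9700.1 against 3769, 8766, 3864 and 5230.3, and Ttn had 1381, 1913, 377 and 2174 against 774, 1595, 2018 and 2019.8. Their log2 fold changes were -0.32 (SE 0.59) and 0.13 (SE 0.48), and both groups overlapped. Myh7 had 52.7, 61.1, 15.1 and 80.8 against 17.0, 46.5, 103 and 82.2, with overlap and a log2 fold change of 0.24 (SE 0.50).

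At the Z-disc, Tcap was higher at 6 weeks, with 166, 314, 45.7 and 233 normalised CPM in Control_6w and 135, 671, 351 and 377 in IRR_6w. IRR_6w replicates 2, 3 and 4 exceeded every control, replicate 1 did not, and the log2 fold change was 1.02 (edgeR, SE 0.66, adjusted p = 0.717). Actn2 had 822, 1368, 173 and 1432 against 367, 1006, 675 and 737, Des had 817, 1584, 176 and 1448 against 262, 1234, 747 and 893, and Ldb3 had 615, 830.5, 121 and 778 against 226, 604, 517 and 466. These 3 were lower by the fit, at -0.45 (SE 0.50), -0.36 (SE 0.57) and -0.37 (SE 0.47), and the groups overlapped. Without the low Control_6w replicate 3, Ldb3 would not overlap, by a narrow margin, whereas Actn2 and Des still would.

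Costamere genes had a median log2 fold change of 0.38 at 6 weeks. Vcl had 56.9, 79.4, 25.2 and 94.996 normalised CPM in Control_6w and 76.5, 110.0, 74.2 and 147 in IRR_6w. The groups overlapped, since irradiated replicates 1 and 3 lay below 2 controls, and Vcl had the smallest p of all members here, with a log2 fold change of 0.67 (edgeR, SE 0.35, adjusted p = 0.627). A share of 25.5% of the exonic bases of Vcl is also covered by Ap3m1 on the opposite strand, and the strandedness of the counting was not given. Dmd had 101, 96.5, 32.4 and 133 against 68.5, 98.0, 162 and 142, a log2 fold change of 0.38 (SE 0.37), and Smpx had 142, 225, 40.7 and 186 against 106, 178, 116 and 123, a log2 fold change of -0.18 (SE 0.39). Both overlapped.

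Among the protein quality genes at 6 weeks, Cryab had 670.4, 1479, 195 and 1322 normalised CPM in Control_6w and 313, 1169, 413 and 403 in IRR_6w, a log2 fold change of -0.67 (edgeR, SE 0.57, adjusted p = 0.787). Hspb2 on the opposite strand covers 17.0% of its exonic bases. Fbxo32 had 101, 101, 37.3 and 98.0 against 48.0, 96.3, 104 and 91.3, and Trim63 had 76.2, 123, 20.2 and 112 against 23.6, 117, 65.4 and 98.3. The fitted log2 fold changes of these ligases were 0.01 (SE 0.31) and -0.12 (SE 0.52), and for Fbxo32 the 95% interval ran from -0.66 to 0.67. Each group held 1 low heart, Control_6w replicate 3 and IRR_6w replicate 1.

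At 6 weeks the members with an unadjusted p under 0.05 changed with single libraries. Without Control_6w replicate 3, 6 of the 39 members reached it by edgeR, all lower (Actc1, Tnni3, Actn2, Ldb3, Myoz2 and Sgca), where 4.06% of all genes were lower at this p in the same fit, the median of the members was -0.67, and the lowest adjusted p was 0.319. Without IRR_6w replicate 2, 5 did so, all lower (Myl2, Tnnt2, Tnni3, Tnnc1 and Cryab), where 5.68% of all genes were. Without the 3 libraries in which markers of other tissues were high (Control_6w replicate 3, IRR_6w replicate 1 and IRR_1d replicate 3), 5 did so, all lower (Myl3, Actc1, Tnni3, Ldb3 and Myoz2), where 3.92% of all genes were, with a lowest adjusted p of 0.210. Without Control_6w replicate 4, Sgcd and Vcl reached it, both higher, where 4.77% of all genes were. The median of the members was then -0.09, as it was over all genes. Without IRR_6w replicate 1 no member reached it, and 24 of 39 were lower, with a median of -0.09 against -0.14 over all genes. Without Control_6w replicate 2 none reached it either, and 23 of 39 were lower, with a median of -0.07 against -0.09. Without the 4 libraries with many genes at 0 counts no member did, and 36 of 39 were lower with a median of -0.40. No member passed the adjusted threshold in any of these fits. With library totals as the scale instead, the median of the members was -0.0041, against 0.14 for all genes, and Sgcd and Vcl reached the unadjusted p, both higher, where 8.86% of all genes were. Scaling by the 13 cardiomyocyte markers put the median at 0.10, against -0.26 for all genes, and Tcap reached the unadjusted p, higher, where 1.58% of all genes were.

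**Figure D3:**
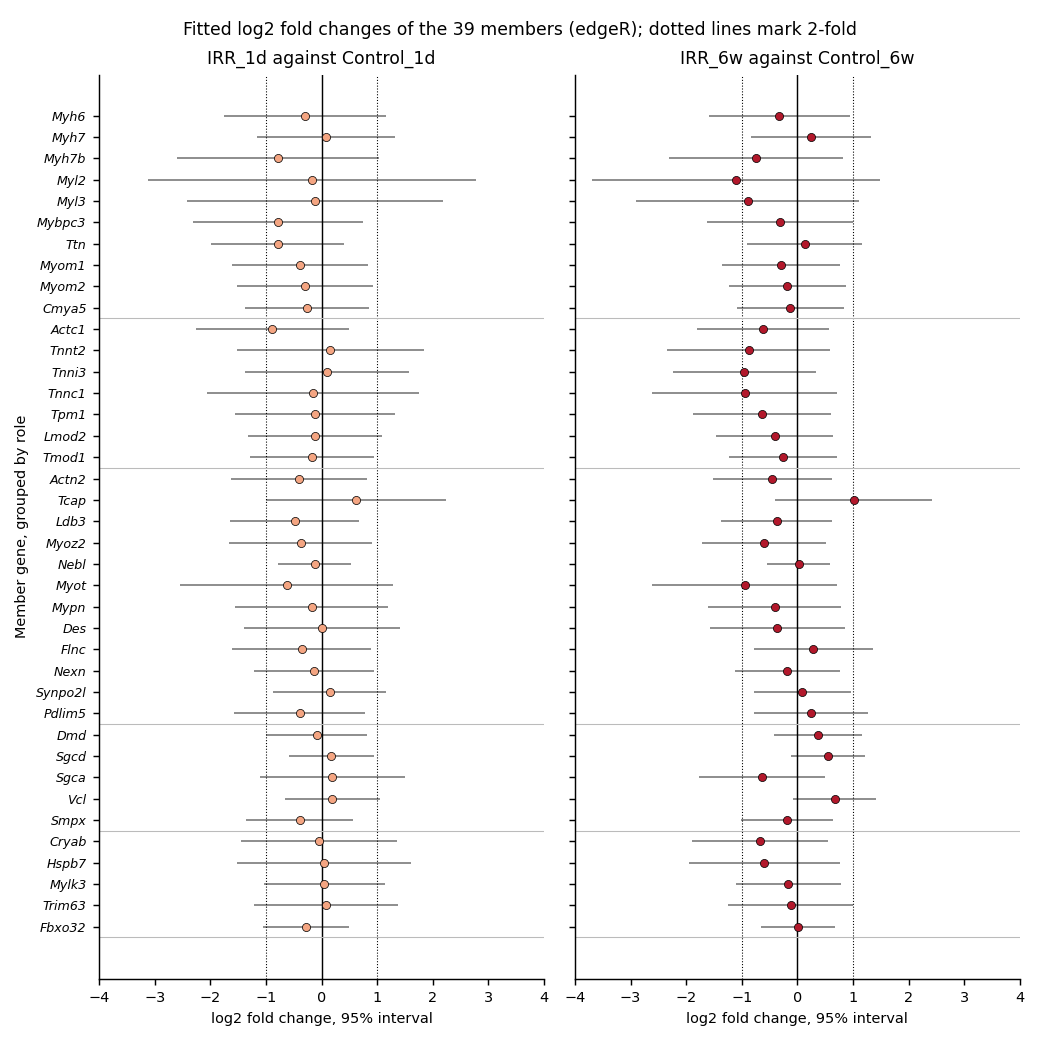
Fitted log2 fold change of each member (points) with its 95% interval (lines) at 1 day (left) and 6 weeks (right), in edgeR's fit, with dotted lines at a 2-fold difference. Every interval includes 0, all 7 thin filament genes lie left of 0 at 6 weeks, and Myl2 has the widest interval in both panels.

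Whether the effect of irradiation differed between 1 day and 6 weeks was tested as an interaction. No member was a DEG by edgeR or DESeq2, and 0% of all genes were. None had an unadjusted p under 0.05 in either tool, where 2.13% of all genes were higher and 1.01% lower by edgeR. The members' median difference of log2 fold changes was -0.04, against -0.15 over all genes. Ttn had the smallest p, with a difference of 0.92 (edgeR, SE 0.74, adjusted p = 0.99), and Tnni3 had the lowest difference, -1.05 (edgeR, SE 0.91, adjusted p = 0.99). Without the 3 libraries with markers of other tissues the median was -0.34, and without the 4 with many genes at 0 counts it was -0.02, with 0 members at an unadjusted p under 0.05 by edgeR in both fits. Without IRR_6w replicate 2 Tnnc1 reached it, lower, where 2.29% of all genes were, and the median was -0.27. Thin filament genes were lower in 5 of 7 members at 1 day and in 7 of 7 at 6 weeks, and their effects were not shown to differ between the times.

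Between the unirradiated groups, 28 of 39 members were lower in Control_6w than in Control_1d, where 40.9% of all tested genes were lower. The members' median log2 fold change was -0.21 against 0.12 over all genes. Of the 13 cardiomyocyte markers 11 were lower (median -0.54), and of the 7 fibroblast markers 6 were, and their part in the member values was not tested. No member was a DEG by edgeR or DESeq2, as was 0% of all genes. At an unadjusted p under 0.05, 4 of 39 were lower and 0 higher in both tools, where 1.75% of all genes were lower and 3.54% higher by edgeR. These 4, chosen for this after their values were seen, were Fbxo32 (log2 fold change -0.84, SE 0.33), Nebl (-0.70, SE 0.28), Sgcd (-0.76, SE 0.33) and Ttn (-1.12, SE 0.52), each with an edgeR adjusted p of 0.902. Fbxo32, with 146, 169 and 139 in Control_1d and 101, 101, 37.3 and 98.0 in Control_6w, did not overlap, nor did Ttn or Nebl, and the values of Nebl were 476, 515 and 382 against 318, 258, 201 and 346. These 3 of 39 were fully lower and 0 fully higher, where 2.53% of all genes were fully lower and 3.39% fully higher. Which of the 4 stayed under 0.05 depended on the libraries. Without Control_6w replicate 3 only Fbxo32 did, where 1.90% of all genes were lower at this p in the same fit, and the members' median was 0.13. Without Control_1d replicate 2 only Sgcd did, against 1.59% of all genes, and without Control_1d replicate 1 only Fbxo32, against 0.762%. Without the 3 libraries with markers of other tissues Ttn, Nebl and Fbxo32 did, against 2.25%. Without Control_6w replicate 4 all 4 did and Dmd joined them, against 1.81%. Without the 4 libraries with many genes at 0 counts none did, and neither did any with scaling by the cardiomyocyte markers, where the median was 0.30 against 1.45 for all genes.

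Between the irradiated groups, 33 of 39 members were lower in IRR_6w than in IRR_1d, where 51.4% of all tested genes were lower. The members' median log2 fold change was -0.39 against -0.02 over all genes. All 13 cardiomyocyte markers were lower by the fit as well (median -0.57), none at an unadjusted p under 0.05 by edgeR. The macrophage sum was 1020 to 1305 normalised CPM in IRR_6w against 579 to 723 in IRR_1d, the endothelium sum 1684 to 2385 against 1280 to 1412, and the mitochondrial share of counts 10.4 to 22.2% against 28.1 to 40.2%. These sums and this share did not overlap. Of the 7 fibroblast markers 5 were lower, 2 of them at an unadjusted p under 0.05 by edgeR. The part of these markers in the member values was not tested. Scaling by the 13 cardiomyocyte markers turned the members' median to 0.16, against 0.66 for all genes, with 13 of 39 lower and Flnc higher at an unadjusted p under 0.05, where 2.79% of all genes were. With library totals the median was -0.05, against 0.30 for all genes. No member was a DEG by edgeR or DESeq2, where 0.0374% of all genes were, and none had an unadjusted p under 0.05 in either tool, where 4.20% of all genes were higher and 1.60% lower by edgeR. Fbxo32 was the single member without overlap, 1 of 39, where 3.84% of all genes were fully lower and 5.47% fully higher. It had 135, 127 and 113 in IRR_1d and 48.0, 96.3, 104 and 91.3 in IRR_6w, with a log2 fold change of -0.56 (edgeR, SE 0.33, adjusted p = 0.995). Without IRR_6w replicate 2, Myl2, Tnnt2, Tnni3 and Tnnc1 reached an unadjusted p under 0.05, all lower, where 3.42% of all genes were. Without the 3 libraries with markers of other tissues, Nebl and Fbxo32 did so lower and Flnc higher, where 3.23% of all genes were lower and 6.72% higher. Without the 4 libraries with many genes at 0 counts Nebl did, lower, where 0.989% of all genes were. This comparison shares its libraries with the irradiation comparisons and adds no independent mice.

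A further 83 genes of the sarcomere, Z-disc, costamere and muscle protein quality control were listed, of which 80 were tested. None was a DEG by edgeR in any comparison. At 1 day 0 had an unadjusted p under 0.05 by edgeR, and the smallest p belonged to Acta2, smooth muscle actin, with a log2 fold change of 1.62 (edgeR, SE 0.76, adjusted p = 1). Its values were 122, 196 and 117 normalised CPM in Control_1d and 134, 146 and 1054 in IRR_1d, so that IRR_1d replicate 3, the library with high smooth muscle markers, carried the difference. At 6 weeks 8 of the 80 were higher and 2 lower at this p, where 5.43% of all genes were higher and 3.37% lower. At the same p, 1 was higher and 2 lower between the controls, against 3.54 and 1.75% of all genes. Between the irradiated groups 6 were higher and 1 lower, against 4.20 and 1.60%, and in the interaction 3 were higher and 0 lower, against 2.13 and 1.01%. Between the controls, Hspb1, a small heat shock protein, had 52.4, 136 and 203 in Control_1d and 424, 714, 134 and 532 in Control_6w, a log2 fold change of 1.79 (edgeR, SE 0.52, adjusted p = 0.902). At 6 weeks it was 1 of the 2 that were lower, with 203, 241, 123 and 140 in IRR_6w and a log2 fold change of -1.35 (edgeR, SE 0.47, adjusted p = 0.350).

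The share of the beta chain in cardiac myosin heavy chain, Myh7 over Myh6 plus Myh7 in FPKM, was small in every library. It was 0.316, 0.311 and 0.290% in Control_1d and 0.316, 0.442 and 0.498% in IRR_1d, and the groups overlapped. At 6 weeks it was 1.01, 0.393, 0.967 and 0.646% in Control_6w and 0.351, 0.412, 2.03 and 1.21% in IRR_6w, so that IRR_6w held both the lowest and the highest of these 8 values. By two-sided exact permutation tests the mean difference was 0.113 percentage points at 1 day (p = 0.200, smallest possible p 0.1) and 0.249 at 6 weeks (p = 0.657, smallest possible p 0.0286). Control_6w exceeded Control_1d by 0.447 percentage points (exact permutation p = 0.0571), with every library of Control_6w above every library of Control_1d, and IRR_6w exceeded IRR_1d by 0.583 (exact permutation p = 0.343). Adjusted over these 4 tests, the exact permutation p-values were 0.400, 0.657, 0.229 and 0.457. Antisense and other transcripts cover 13.3% of the exonic bases of Myh7 on the opposite strand, including the Mhrt locus. The difference at 6 weeks was -0.09 percentage points without IRR_6w replicate 3, so its direction rested on that library. Without it the difference between IRR_6w and IRR_1d was 0.24.

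Other paired isoforms separated single libraries rather than groups. Myl7 and Myl4 are the regulatory and essential light chains of the atrium, the counterparts of Myl2 and Myl3 in the ventricle. In IRR_6w replicate 1, Myl7 made up 99.7% of Myl2 plus Myl7 and Myl4 made up 95.7% of Myl3 plus Myl4, in FPKM. The next highest libraries were IRR_1d replicate 3, with 51.5 and 14.3%, Control_6w replicate 3, with 43.5 and 12.4%, and Control_1d replicate 2, with 18.8 and 3.19%, and the other 10 were at or below 3.71 and 0.937%. Skeletal alpha-actin (Acta1), which is re-expressed in stressed heart muscle, made up 4.503, 4.33 and 5.08% of Acta1 plus Actc1 in Control_1d and 0.918, 5.34 and 6.73% in IRR_1d. It made up 4.37, 2.04, 5.297 and 5.61% in Control_6w and 0.254, 3.72, 11.4 and 14.96% in IRR_6w. IRR_6w replicates 3 and 4, which were also highest in the Myh7 share, were highest here and replicate 1 was lowest of all 14. Among the 4 libraries with many genes at 0 counts are IRR_6w replicates 3 and 4 and Control_6w replicate 1, which had the next highest Myh7 share. Control_1d replicate 1, also among these 4, had a Myh7 share of 0.316%. The part of the genes at 0 counts in these shares was not tested. These light chain and actin shares were chosen after the values were seen and were not tested.

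**Figure D4:**
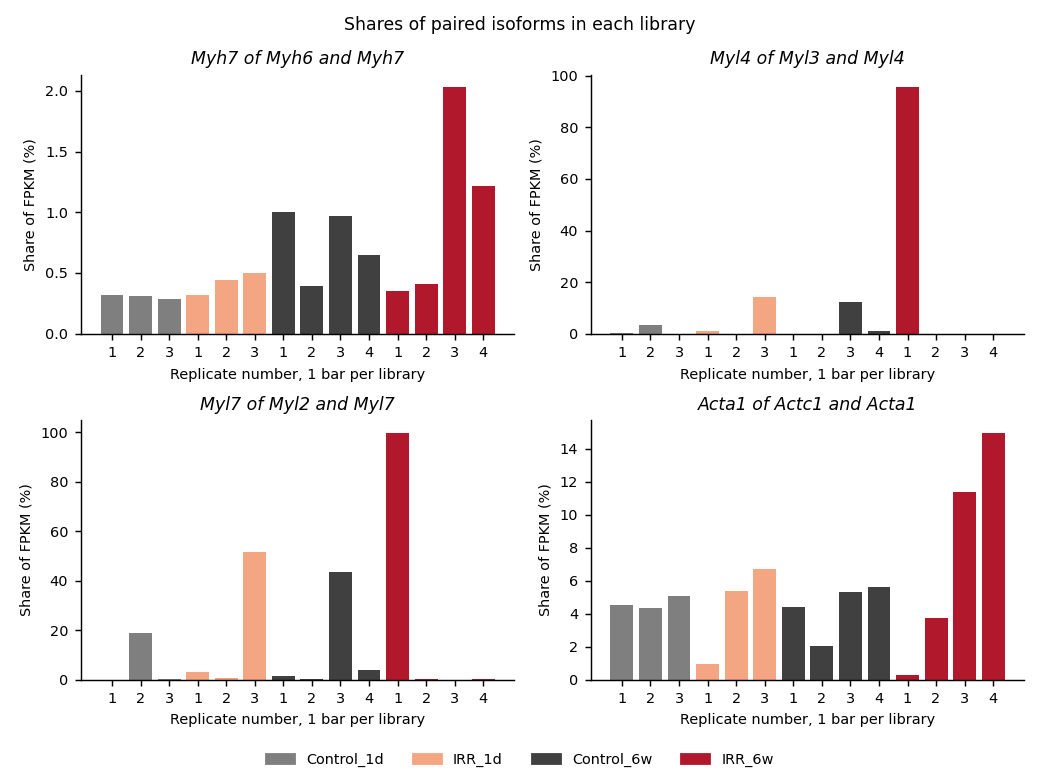
Share of FPKM of the second isoform in 4 pairs, 1 bar per library in the order Control_1d, IRR_1d, Control_6w and IRR_6w, coloured by group. The Myl4 and Myl7 shares are highest in IRR_6w replicate 1, and the Myh7 and Acta1 shares are highest in IRR_6w replicates 3 and 4.

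Members of 1 filament did not keep a fixed ratio, as a pair of ratios picked after the values were seen shows. Myl2 over Myl3, in normalised CPM, was 1.04 and 0.863 in Control_6w replicates 2 and 4 and 1.05 in IRR_6w replicate 2, but 0.180 in Control_6w replicate 1 and 0.132 and 0.221 in IRR_6w replicates 3 and 4. Tnnc1 over Tnni3 was likewise 0.155 in Control_6w replicate 1 and 0.192 and 0.160 in IRR_6w replicates 3 and 4, against 0.354 in Control_6w replicate 2 and 0.412 in IRR_6w replicate 2. Control_6w replicate 1 and IRR_6w replicates 3 and 4 are among the 4 libraries with many genes at 0 counts. The fourth of these, Control_1d replicate 1, had 0.233 for Tnnc1 over Tnni3, so that these 4 libraries held the 4 lowest values of that ratio, the next being 0.237 in IRR_6w replicate 1. Myl2 over Myl3 was 0.778 in Control_1d replicate 1 and 0.264 in IRR_6w replicate 1. The part of the genes at 0 counts in these ratios was not tested. Along all 39 members, Spearman's rho between the length of the longest coding transcript and a member's log2 deviation from its median ran from -0.51 in IRR_6w replicate 2 to 0.60 in IRR_6w replicate 4, and was 0.56 in IRR_6w replicate 3. Over 11059 genes, members included, above 5 normalised CPM, rho in these 3 libraries had the same sign, at -0.26, 0.30 and 0.19. With the GC content of the transcript, rho over the members ran from -0.63 in Control_1d replicate 1 to 0.63 in Control_1d replicate 3, and over the 11059 genes it was -0.50 and 0.48 in these libraries. Genes of 1 library share its depth and preparation, and no test was made.

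Short and long members also differed in level within single libraries. The 9 members with a longest coding transcript of at most 1200 bases, which are Myl2, Myl3, Tnnt2, Tnni3, Tnnc1, Tcap, Myoz2, Smpx and Cryab, had a median of 57.2 and 51.7% of their across-library medians in IRR_6w replicates 3 and 4, and of 162% in IRR_6w replicate 2. The 14 members of at least 5000 bases stood at 92.1, 92.0 and 96.3% there. In IRR_6w replicate 1 the short members stood at 32.3% and the long ones at 48.2%. In Control_6w the short members stood at 84.2, 194, 22.5 and 143% and the long ones at 86.7, 123, 19.3 and 124%. At 1 day the short members stood at 57.6, 107 and 154% in Control_1d and 156, 110.2 and 66.0% in IRR_1d, and the long ones at 107, 134 and 134% and 111, 105 and 75.3%. The limits of 1200 and 5000 bases were chosen after the values were seen. By the fit at 6 weeks, 8 of the 9 short members were lower and Tcap was higher, with the highest log2 fold change of all members. Of the 14 long members 7 were lower (Myh6, Myh7b, Myom1, Myom2, Cmya5, Ldb3 and Mypn) and 7 higher (Myh7, Ttn, Nebl, Flnc, Dmd, Vcl and Fbxo32). The part of length, GC content or RNA quality in those values was not tested.

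**Figure D5:**
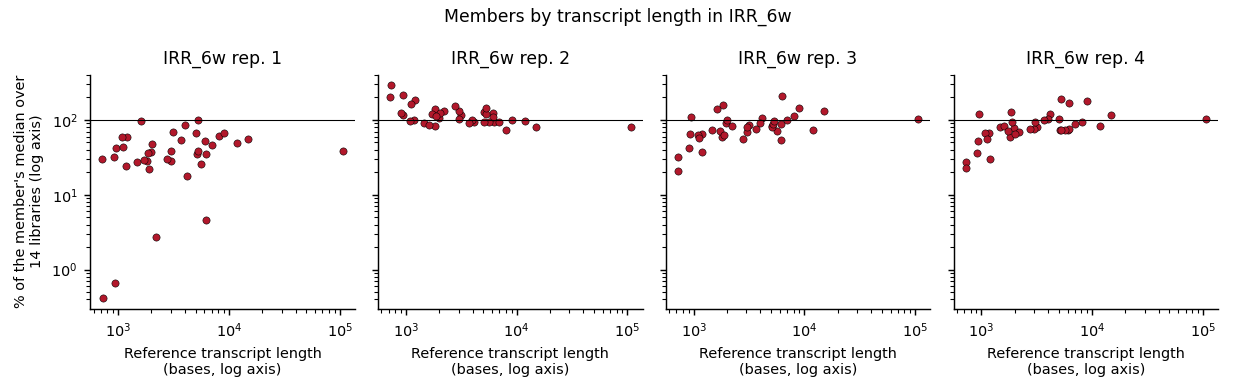
Each member's level as a percentage of its median over the 14 libraries (vertical log axis) against the length of its longest coding transcript in bases (horizontal log axis), for the 4 libraries of IRR_6w. Most short members lie above 100% in replicate 2 and mostly below it in replicates 3 and 4, and Myl2 and Myl3 lie lowest in replicate 1.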

How the data were processed

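Per the study's methods and the labels, the authors checked reads with FastQC 0.11.8, trimmed them with Trim Galore 0.6.1, and aligned them to mm10 with STAR 2.5.0a, then obtained gene counts from HTSeq, and deposited these raw counts as whole numbers beside a length for each gene. Strandedness and the annotation release were not given in the sources used here. The deposited length equalled the union of exons in GENCODE M21 for 39 of 39 members. The members and lists were chosen with earlier results of these data known.

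The count test was edgeR 4.0.16 under R 4.3.3 (filterByExpr, TMM, quasi-likelihood fit over the 4 groups, Benjamini-Hochberg adjustment over 16034 genes). It was also run on counts simulated from the spread of the main fit, which do not model RNA of other tissues. Normalised CPM is the count over the TMM-scaled library size, and FPKM is that value per kilobase of deposited length. Single shares were compared by exact two-sided permutation. Mice are the replicates, and edgeR set each difference against a spread between mice estimated over all 4 groups. By counting alone, 0 counts in a library allow up to 3. Members named with values in every library were 13 fixed genes and, in each role, the gene with the smallest p in either irradiation comparison, 18 in all, and in those comparisons no member met the other criteria of being a DEG or of having separate groups with an unadjusted p under 0.05. The 3 libraries with markers of other tissues were kept in the main fit. DESeq2 1.42.0, other scalings and filters, and each library left out served as alternatives. Values of 1 gene of the wider list are not reported here.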

Additional observations from a re-analysis of the deposited data

Results flagged for a closer look

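Among the groups of 4 mice, 52 sets of values were examined for a mouse that lay far from the other 3, and 9 were found. The limit was a gap to the nearest of them above Dixon's 95% critical share of the group's range. In a single set fixed beforehand, chance gives such a gap in about 1 in 20 groups. The sets share the same mice, and the light chain and actin shares and the pair of ratios were chosen after the values were seen. The 9 can therefore not be set against that rate. In Control_6w, replicate 3 stood apart with 37.3 normalised CPM of Fbxo32, the ubiquitin ligase atrogin-1, far below the 3 other mice. The same library was high in the share of Myl7 in Myl2 plus Myl7, at 43.5%, and of Myl4 in Myl3 plus Myl4, at 12.4%. In IRR_6w, replicate 2 was far above the others for Myl2 at 3960.4, Tnni3 at 2561 and Cryab at 1169 normalised CPM, and for the ratio of Myl2 to Myl3 at 1.05. IRR_6w replicate 1 stood apart in the atrial light chains, with 99.7% for the Myl7 share and 95.7% for the Myl4 share.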

How the results depend on the processing

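No member was called under any of the alternatives run: DESeq2, the compared groups alone, no filter on low counts, other scalings, the replicate block, the sets of doubtful libraries left out, and each library left out. Replicate numbers name different mice and were not used as pairs in the main fit. The correlations of same-numbered libraries ran from -0.39 to 0.46. Those of differently numbered libraries were not set beside them, so this range cannot decide whether a number marks a shared batch. With the replicate block the members' median log2 fold change was -0.17 at 1 day and -0.19 at 6 weeks, and Vcl alone reached an unadjusted p under 0.05 at 6 weeks by edgeR, higher, where 4.48% of all genes were. Over all alternatives the median ran from -0.38 to 0.22 at 1 day, -0.67 to 0.10 at 6 weeks, -0.50 to 0.30 between the controls, -0.61 to 0.16 between the irradiated groups and -0.36 to 0.24 for the difference of effects. Scaling by cardiomyocyte markers and leaving out the 4 libraries with many 0 counts were added after the data were seen. The difference in the Myh7 share at 6 weeks was 0.249 percentage points and ran from -0.094 without IRR_6w replicate 3 to 0.466 without IRR_6w replicate 1, and the cause was not tested. For the 18 members named with values in every library, 828 fold changes were refitted under alternatives in the irradiation comparisons at 1 day and 6 weeks, of which 64 changed sign, all of them uncalled.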

Other observations

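Ankrd1, which encodes a stress-responsive partner of titin at the I-band, was picked from the wider list after its values were seen. It had 336, 529, 135 and 671 normalised CPM in Control_6w and 874, 1487, 1430.1 and 1597 in IRR_6w, so that every irradiated heart was above every control, including IRR_6w replicate 1, in which most members were low. The log2 fold change was 1.69 (SE 0.46), and the adjusted p by edgeR was 0.165 over all tested genes. The adjusted threshold was not passed. At 6 weeks 4 of the 80 tested genes of the wider list were fully higher, as were 4.08% of all tested genes. The macrophage and fibroblast sums also separated IRR_6w from Control_6w, and their part in the values of Ankrd1 was not tested.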
